A study of Mus musculus with 2 samples.

Results

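Blood clots by a cascade in which liver-made serine proteases activate one another until thrombin (F2) converts fibrinogen to fibrin, and the fibrinolytic system, centered on plasminogen (Plg), removes the fibrin again. Hepatocytes are the main source of most clotting factors, fibrinogen, plasminogen and several of their inhibitors, whereas endothelial cells supply factor VIII (F8), von Willebrand factor (Vwf) and the thrombin receptor thrombomodulin (Thbd). Here, 33 genes of this system other than serpins were chosen by symbol, and all 33 were found among the 24054 genes of the deposited expression table. They comprised the contact system and kininogens, the clotting factors, fibrinogen and factor XIII, the protein C, protein S and protein Z anticoagulants with tissue factor pathway inhibitor, the fibrinolysis genes, and F2r, Hgfac and Pzp.

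Liver RNA came from male C57BL/6 mice aged 8 to 12 weeks that were either WT or Pgrmc1 KO (Pgrmc1 -/Y). The KO mice lack exons 1 and 2 of the X-linked gene in the whole body, since a floxed allele made in C57BL/6N had been deleted with Sox2-Cre (line B6.Cg-Tg(Sox2-cre)1Amc/J), which is active in the early embryo. The labels name no substrain, and whether the WT mice carried Cre is not given in the sources used here. Each mouse gave 2.5 μg of RNA to the pool of its genotype, and each pool was sequenced as 1 library, made with a stranded total RNA kit. With 1 pooled library on each side, the spread between mice was not measured, no p-value was computed, and no difference below has a replicate check.

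Levels are given in TPM, a length-corrected share of all transcripts, so that genes can be compared within a library. The change of a gene is log2((KO TPM + 1)/(WT TPM + 1)), which understates the change of low genes, and fold refers to the same scale. The authors also deposited a scaled read value of each library, from which 22086688 reads on genes were estimated in KO and 29710410 in WT. Each 95% interval is a Clopper-Pearson interval of the log2 ratio of these read values. It covers counting error only and can lie slightly off the TPM change because the scaling differs. Pgrmc1 checks the labels and was at 0.68 TPM in KO against 949.49 in WT. Of the 24054 genes, 11623 averaged at least 1 TPM over the libraries, and their median log2 change was -0.01. In bulk liver RNA, fewer cells of a type and less RNA per cell cannot be told apart.

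The fibrinogen chains were the most abundant members, lie side by side on chromosome 3 and differed between the libraries by nearly the same amount, so their promoters are shown first. Each line is a RefSeq promoter of GRCm38.p6, the assembly behind mm10, read 5′ to 3′ on the strand of the gene from 250 bases before the start site to 50 bases from it. Fga lies on the plus strand (chr3:83025903-83026202), Fgb on the minus strand (chr3:83049814-83050113) and Fgg on the plus strand (chr3:83007474-83007773). Capitals mark CTGGGA, the core of IL-6 response elements of acute phase genes, or its reverse complement TCCCAG, and GTTAAT, a half-site of the hepatocyte factor HNF1, or its reverse complement ATTAAC.
Fga: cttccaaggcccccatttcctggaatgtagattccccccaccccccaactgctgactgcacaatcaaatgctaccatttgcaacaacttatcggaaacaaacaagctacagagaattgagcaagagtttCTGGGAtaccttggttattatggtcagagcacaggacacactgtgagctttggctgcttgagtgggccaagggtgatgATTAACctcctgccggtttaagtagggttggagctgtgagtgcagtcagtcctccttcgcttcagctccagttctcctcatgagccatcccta
Fgb: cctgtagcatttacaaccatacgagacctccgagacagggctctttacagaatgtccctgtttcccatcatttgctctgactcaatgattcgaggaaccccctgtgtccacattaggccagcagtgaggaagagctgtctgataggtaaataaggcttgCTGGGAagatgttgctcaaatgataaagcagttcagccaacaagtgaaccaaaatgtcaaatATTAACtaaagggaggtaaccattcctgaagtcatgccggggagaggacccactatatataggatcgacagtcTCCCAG
Fgg: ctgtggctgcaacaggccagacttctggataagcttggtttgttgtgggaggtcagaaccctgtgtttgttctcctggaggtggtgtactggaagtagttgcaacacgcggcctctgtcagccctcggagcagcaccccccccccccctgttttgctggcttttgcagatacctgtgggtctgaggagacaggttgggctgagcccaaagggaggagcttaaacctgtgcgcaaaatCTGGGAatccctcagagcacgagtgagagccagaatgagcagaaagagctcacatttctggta
With the start site counted as 0, CTGGGA stood at -121 to -116 in Fga, at -91 to -86 in Fgb and at -13 to -8 in Fgg, and Fgb held TCCCAG at 44 to 49. ATTAAC was found at -43 to -38 in Fga and at -29 to -24 in Fgb, and neither form of it was in the Fgg window. Searched on both strands, CTGGGA was in 10440 of 32851 promoters in the RefSeq table (31.8%) and in 15 of the 28 promoters listed for 26 of the members (53.6%). GTTAAT was in 7.1% of all promoters and in 7 of the 28 (25%), namely those of Fga, Fgb, F2, F13b, Proz, Hgfac and Pzp. The 2 motifs do not overlap in any of the printed windows. These are matches of letters, and whether a factor binds there was not measured.

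Together the 33 members made up 2.14% of all TPM in KO and 2.06% in WT, at 21556 and 20457 TPM. Their levels spanned more than 4 orders of magnitude, from F13a1 at 0.15 (KO) and 0.09 TPM (WT) to Fgb at 4767.61 and 4479.20 TPM. At least 1000 TPM was reached by 7 members, 100 TPM by 19, and 5 lay between 1 and 10 TPM. The 4 members under 1 TPM were F13a1, Procr, Plat and Plaur, and the other 29 passed the filter. Among those 29, only Plau had a library under 1 TPM.

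**Figure D1:**
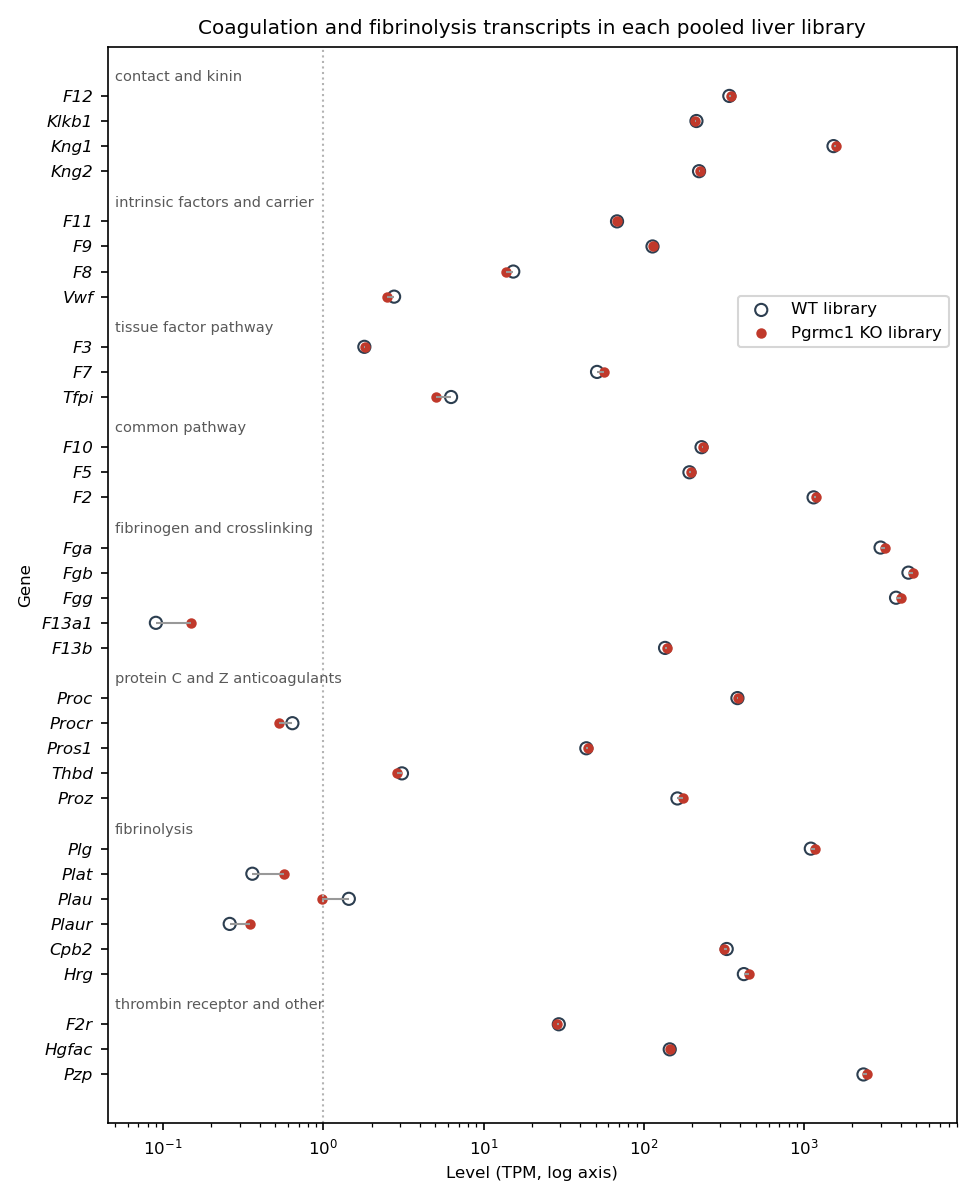
Level of each of the 33 members in the KO library (filled red) and the WT library (open), in TPM on a log axis, grouped by role; the dotted line marks 1 TPM. The paired points nearly coincide for the abundant liver-made genes, and the widest gaps on the log axis are those of the scarce F13a1, Plat and Plau.

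None of the 29 members was past the fold of 1.4 upward or 0.6 downward. Of all 11623 genes, 1.21% were past the first and 0.301% past the second. At a smaller fold of 1.2, 0 members were higher in KO and 2 were lower, Plau and Tfpi, where 5.39% and 5.51% of all genes were past it. The log2 changes of the 29 ran from -0.30 for Plau to 0.15 for F7, with a median of 0.02, and 23 of them were under 0.1 in size. A change above 0 was found for 20 of 29, against 45.8% of all genes. The 5th and 95th percentiles of all genes were -0.27 and 0.27, and 18 of the 29 members lay between the 25th (-0.10) and the 75th percentile (0.08). On the read values, the counting interval lay above 0 for 12 members, below 0 for F8 and Tfpi, and held 0 for 15. The same count was not made over all genes, so these numbers have no background share. Where reads are many, even a small difference gives an interval that excludes 0.

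**Figure D2:**
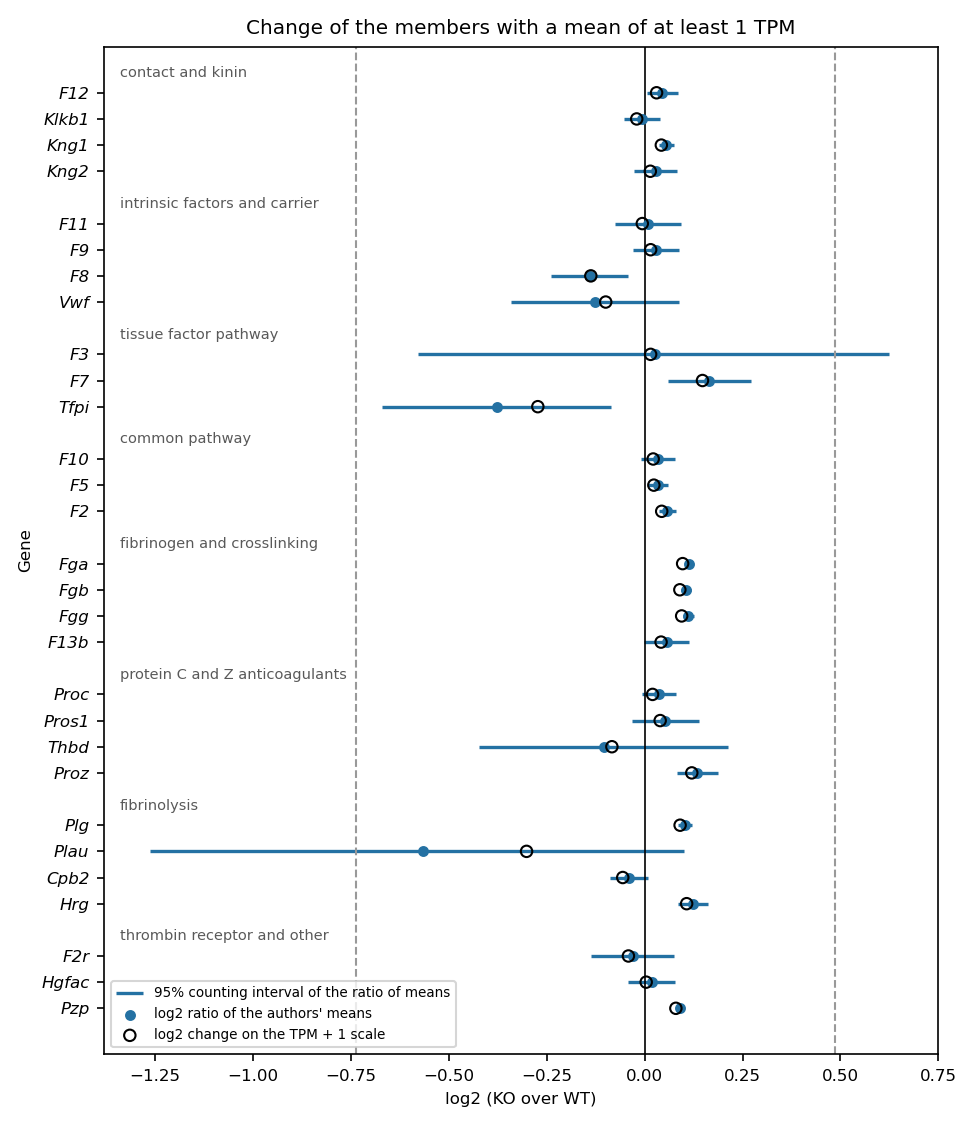
Change of the 29 members that averaged 1 TPM or more, as log2 of KO over WT: open circles on the TPM + 1 scale, filled points from the authors' scaled read values with their 95% counting interval (bars); dashed lines mark folds of 1.4 and 0.6. No TPM change reaches a dashed line, the fibrinogen chains sit together near 0.1, and the widest bars belong to Plau and F3, which rest on few reads.

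Fibrinogen, the substrate of thrombin, is a hexamer with paired chains encoded by Fga, Fgb and Fgg. Fga was at 3209.56 TPM in the KO library against 3000.55 TPM in the WT library, a log2 change of 0.10 (95% interval 0.10 to 0.12). Fgb was at 4767.61 and 4479.20 TPM, a change of 0.09 (0.09 to 0.12). Fgg was at 4002.78 and 3748.56 TPM, a change of 0.09 (0.10 to 0.13). All 3 chains were thus slightly higher in the KO library, by 1.07-fold for Fga, 1.06-fold for Fgb and 1.07-fold for Fgg. Their summed level was 11980 TPM in KO against 11228 in WT, a ratio of 1.07, and made up 55.6% and 54.9% of the TPM of all members. The ratio of Fga to Fgb was 0.673 in KO and 0.670 in WT, and that of Fgg to Fgb was 0.840 and 0.837, so the proportions of the chains were almost the same in both libraries. The genes lie within a short stretch of chromosome 3 (Fgg 83007724 to 83015056, Fga 83026153 to 83033627, Fgb 83042246 to 83049863), and the gaps between neighbors are 11096 and 8618 bases. A change at least as large as that of Fga was found for 47.5% of the 11623 genes.

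The fibrinogen chains belong to the acute phase genes, which hepatocytes raise after IL-6, and several other genes of that class differed more between these libraries. Of 12 acute phase genes, a list chosen with earlier results of these data known, 10 were above 0, against 45.8% of all genes. Their median log2 change was 0.36. Saa2 was the highest at 3.69 and Cp, the gene of the ferroxidase ceruloplasmin, the lowest at -0.07. Saa1, Saa2, Orm2, Lcn2 and Mt2 were past the fold of 1.4, where 1.21% of all genes were past it. Fgl1, a secreted relative of fibrinogen, was at 402.38 (KO) and 225.87 TPM (WT), a change of 0.83 (0.79 to 0.91), which is well above that of any fibrinogen chain.

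Factor XIII crosslinks fibrin. Its carrier subunit F13b was at 139.61 TPM in the KO library against 135.57 TPM in the WT library, a change of 0.04 with an interval that just holds 0 (-0.001 to 0.11). The catalytic subunit F13a1, which is made by macrophages and megakaryocytes, rested on 6 estimated reads in KO and 4 in WT, too few to show a difference (-1.06 to 3.29).

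The contact system starts clotting on charged surfaces and releases bradykinin from kininogen. Factor XII (F12) was at 348.70 TPM in KO against 341.37 in WT, a change of 0.03 (0.01 to 0.09). Plasma kallikrein (Klkb1) was at 209.89 and 212.85 TPM, a change of -0.02 (-0.05 to 0.04). The kininogen gene Kng1 was at 1571.67 and 1525.76 TPM, a change of 0.04 (0.04 to 0.07). Its neighbor and copy Kng2 was at 223.20 and 220.94 TPM, a change of 0.01 (-0.03 to 0.08). The kininogens share 160 windows of 100 bases (4.93% of those of Kng1 and 5.29% of those of Kng2), so that reads can be split between them. Their sum was 1795 (KO) and 1747 TPM (WT), a ratio of 1.03, and Kng1 made up 87.6% and 87.4% of it. Among GENCODE transcripts, Klkb1 shares 42.1% of its windows with Gm45753, which has no entry of its own in the deposited table.

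Of the intrinsic factors, F11 and F9 differed least. F11, a protease beside Klkb1 on chromosome 8 with a gap of 4632 bases, was at 67.69 TPM in the KO library against 67.97 TPM in the WT library, a change of -0.01 (-0.08 to 0.09) that turned positive on the read values. F9, on the X chromosome like Pgrmc1, was at 114.42 and 113.19 TPM, a change of 0.02 (-0.03 to 0.09). F8, the cofactor of F9 (X chromosome, 75170344 to 75382738), was at 13.82 TPM in KO against 15.30 in WT, a change of -0.14 (-0.24 to -0.04). Vwf, the carrier of F8 in plasma, was at 2.51 and 2.76 TPM, a change of -0.10 (-0.34 to 0.09). F8 and Vwf therefore both stood lower in KO, but the depth behind Vwf, 306 and 451 estimated reads, does not exclude a change of 0.

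In the tissue factor pathway, the liver-made protease and its inhibitor lay near opposite ends of the members. F7 was at 56.62 (KO) and 51.01 TPM (WT), a change of 0.15 (0.06 to 0.27), the highest of the 29. Tfpi, the Kunitz inhibitor of F7 and F10 that endothelial cells make (chromosome 2, 84432855 to 84476775), was at 5.01 and 6.26 TPM, a change of -0.27 (-0.67 to -0.09). Tissue factor itself (F3), the cell surface receptor of F7, was at 1.83 and 1.8 TPM, a change of 0.02 on 43 and 57 estimated reads (-0.58 to 0.62). A change as large as that of Tfpi was found for 9.84% of all genes, and one as large as that of F7 for 30.01%. The change of Tfpi rests on 154 and 270 estimated reads.

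The 3 genes of the common pathway were all slightly above 0. For scale, the summed TPM of all genes had a log2 ratio of 0.015, and the median gene was at -0.01. F10 was at 232.51 TPM in the KO library against 228.99 TPM in the WT library, a change of 0.02 (-0.01 to 0.08). F5, the cofactor of F10, was at 195.62 and 192.43 TPM, a change of 0.02 (0.01 to 0.06). F2 was at 1181.18 and 1145.92 TPM, a change of 0.04 (0.04 to 0.08). F7, F10 and Proz are neighbors on chromosome 8 (F7 13025506 to 13035809, F10 13037308 to 13056676, Proz 13060584 to 13076026), with gaps of 1498 and 3907 bases. The outer genes of this row were higher in KO by 0.15 and 0.12, and F10 between them by 0.02, with an interval that holds 0.

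Protein C (Proc), protein S (Pros1) and their endothelial partners thrombomodulin and the protein C receptor (Procr) switch off factors V and VIII. Proc was at 389.00 TPM in KO against 383.55 in WT, a change of 0.02 (-0.01 to 0.08). Pros1 was at 44.97 and 43.72 TPM, a change of 0.04 (-0.03 to 0.14). Neither interval excludes 0. Proz, the cofactor of the serpin that inhibits F10, was at 176.14 and 161.95 TPM, a change of 0.12 (0.08 to 0.19). Thbd was at 2.86 and 3.09 TPM, a change of -0.08 (-0.42 to 0.21), and Procr at 0.53 and 0.64 TPM, with 9 and 15 estimated reads. F2, F7, F9, F10, Proc, Pros1 and Proz share a Gla domain, which vitamin K-dependent carboxylation equips to bind membranes. All 7 were above 0, against 45.8% of all genes, with a median of 0.04. The intervals of F7, Proz and F2 lay above 0, and those of F9, F10, Proc and Pros1 held it. The other liver-made members had much the same sign, since 19 of the 22 members listed as made mainly in hepatocytes, these 7 included, were above 0 with a median of 0.04. The carboxylase Ggcx was at 53.25 (KO) and 52.82 TPM (WT), and the vitamin K reductase Vkorc1 at 168.78 and 167.75 TPM, both changes of 0.01.

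Among fibrinolysis genes, Plg was at 1172.73 TPM in the KO library against 1101.24 TPM in the WT library, a change of 0.09 (0.09 to 0.12) that is close to those of the fibrinogen chains. Hrg, a histidine-rich glycoprotein that binds plasminogen and heparin, was at 453.30 and 420.72 TPM, a change of 0.11 (0.09 to 0.16). It lies 24192 bases from Kng2 on chromosome 16, whose change was 0.01. Cpb2, the carboxypeptidase that protects fibrin from plasmin, went the other way, at 316.25 and 328.76 TPM, a change of -0.06 (-0.09 to 0.01). The plasminogen activators and their receptor were scarce. The urokinase gene Plau was at 0.98 and 1.44 TPM, a change of -0.30 on 29 and 58 estimated reads (-1.26 to 0.10). The tissue-type activator Plat was at 0.57 and 0.36 TPM on 18 and 15 reads, and the urokinase receptor Plaur at 0.35 and 0.26 TPM on 5 and 5 reads. At this depth no difference was detectable for these 3 genes.

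The remaining members include the thrombin receptor F2r, at 28.58 TPM in KO against 29.44 in WT, a change of -0.04 (-0.14 to 0.08). Hgfac, a protease related to F12 that activates hepatocyte growth factor, was at 145.40 and 144.99 TPM, a change under 0.01 in size (-0.04 to 0.08). Pzp, a plasma protease inhibitor of the macroglobulin family, was at 2480.19 and 2346.58 TPM, a change of 0.08 (0.08 to 0.10).

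The members were split into 2 parts by the cells known to make them, and this split was drawn up with earlier results of these data known. Of 22 listed as made mainly in hepatocytes, all passed the filter, and 19 were above 0 with a median of 0.04; the exceptions were F11, Klkb1 and Cpb2. Of 11 listed as made mainly in other cells, 7 passed the filter, and 6 of those were below 0 with a median of -0.10, F3 being the exception. Of all genes, 53.8% were below 0, and both medians lay between the 25th and the 75th percentile of all genes. Of the 4 under the filter, Procr was below 0 and F13a1, Plat and Plaur above it, so that without a filter 7 of the 11 were below 0. Of all 24054 genes, 35.06% were below 0, a share that counts genes with equal values in both libraries as neither. That share is no like background for the 11, since it includes genes with no estimated reads in a library. Such genes can still be listed above 0 TPM, and the libraries differ in depth. With 10 TPM as the minimum, F8 and F2r alone were left, both below 0. The 7 were scarce, with a mean between 1.21 TPM for Plau and 29.01 TPM for F2r, and only F8 and Tfpi had an interval that excludes 0. Among genes that averaged 100 TPM or more, 17 of 19 members and 49.9% of all genes were above 0.

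**Figure D3:**
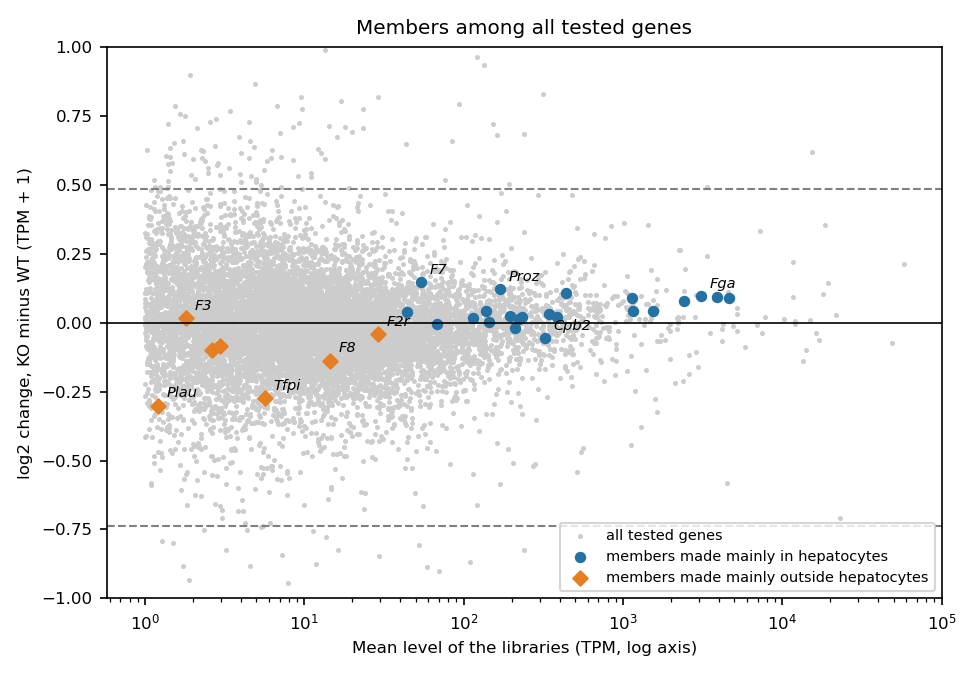
Change against mean level for all 11623 genes (gray) with the 29 members in color, on a log axis of TPM; dashed lines mark folds of 1.4 and 0.6, and 58 genes lie beyond the vertical axis. Members made in hepatocytes lie at high levels close to or just above 0, and those made in other cells lie further left and, but for F3, below 0.

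Markers of cell types in the liver were set beside the members, and their sign counts stand against 45.8% of all genes above 0 and 53.8% below. Of 12 liver endothelial markers, 11 were below 0, with a median of -0.09 and a summed level of 278.81 (KO) and 301.36 TPM (WT), and they ran from -0.60 for Lyve1 to 0.06 for Dnase1l3. The counting interval held 0 for 9 of the 12 and lay below it for Lyve1, Pecam1 and Ptprb, of which Pecam1 and Ptprb were named after their values were seen. Of 10 stellate cell markers, 7 were below 0, with a median of -0.06 (268.04 and 296.13 TPM), from -0.53 for Rgs5 to 0.17 for Lrat, and 6 intervals held 0. All 10 Kupffer cell markers in the table were above 0, with a median of 0.17 (399.36 and 350.71 TPM), from 0.10 for Vsig4 to 0.32 for Cd163, and 4 intervals held 0. Of 9 hepatocyte markers, 3 were above 0, with a median of -0.07 (71799 and 74893 TPM), from -0.28 for Tat to 1.12 for G6pc, so most of them did not share the sign of the liver-made members. On the read values, 5 of their intervals lay below 0, 3 lay above it and 1 held it. Of 9 platelet and megakaryocyte markers, 3 reached 1 TPM and were above 0, from 0.03 for Itga2b to 0.35 for Pf4, at a summed level of 7 and 5.13 TPM for all 9, and all 3 intervals held 0. No marker of these lists was at 0 in both libraries. The part of these cell types in the values of the members was not tested.

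**Figure D4:**
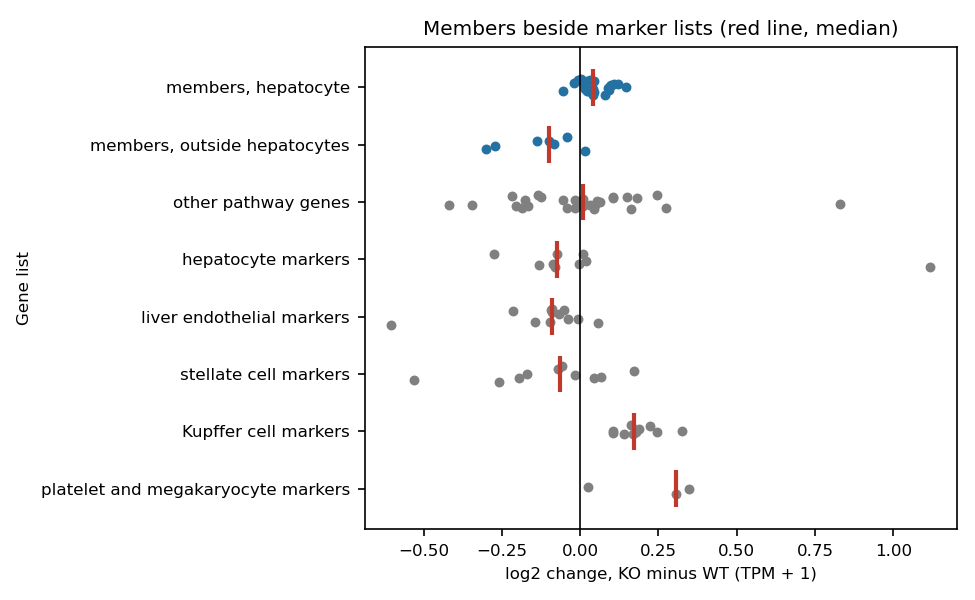
Change of each gene that averaged 1 TPM or more, for the members by source, the other pathway genes and marker lists of liver cell types; each point is a gene and the red line is the median. Members made outside hepatocytes and liver endothelial markers lie mostly below 0, and Kupffer cell markers lie above it.

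A list of 42 other genes of the pathway was described in the same way, and 31 of them passed the filter. Of these, 1 was past the fold of 1.4 (Fgl1) and 0 were past 0.6, against 1.21% and 0.301% of all genes. The median was 0.01, and 17 were above 0, against 45.8% of all genes. Gas6 (0.27), a Gla domain ligand, was past 1.2 upward with Fgl1, and Anxa2 (-0.42), which binds plasminogen, and Serpine2 (-0.35), a thrombin inhibitor, were past it downward; Gas6 and Serpine2 were named after their values were seen. The main inhibitor of thrombin, antithrombin (Serpinc1), was at 1357.58 TPM in the KO library against 1364.55 TPM in the WT library, a change of -0.01. The plasmin inhibitor Serpinf2 was at 597.63 and 533.41 TPM, a change of 0.16 (0.15 to 0.21), which is larger than that of its target Plg.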

How the data were processed

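Liver RNA of 8 to 12 week old male Pgrmc1 KO and WT mice was pooled by genotype, and 1 library per genotype was sequenced. The authors ran RSEM 1.2.09 with Bowtie on mm10 after CASAVA 1.8.2 and deposited posterior mean TPM for 24054 genes, with column sums of 1005325 (KO) and 994702 (WT). For 16318 genes the authors also deposited, from EBSeq, a signal for each library, that is, reads after size-factor scaling. Posterior probabilities and fold changes in that table are the authors' comparison and were not used. The most frequent signal value was taken as 1 read; within 0.02 of a read, 78.4% of KO and 75.0% of WT values were whole, and 93.3% and 92.7% of values up to 20 reads, so no count test was run and reads were rounded for the intervals.

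Members and lists (roles, source cells, other pathway genes, cell type markers, acute phase genes and liver transcription factors) were chosen with earlier results of these data known. Genes that averaged 1 TPM or more were kept. All 33 members are named, with the highest and lowest gene of each other list, those past the fold of 1.4 or 0.6, and Serpinc1, Serpinf2, Ggcx and Vkorc1; 1 further gene of this rule is not reported here. Positions and promoters are those of RefSeq on GRCm38.p6, and all 33 members matched by symbol; shared windows of 100 bases were counted in GENCODE transcripts. Calls and intervals were tried on simulated reads with counting error only, which cannot show how they behave with a spread between mice. The alternatives comprised 0.1 TPM as pseudocount, other filters, the signal, centering, rescaling and other folds. Scripts ran in Python 3.11.15 with scipy 1.17.1, numpy 2.4.6, matplotlib 3.10.9 and pandas 2.3.3.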

Additional observations from a re-analysis of the deposited data

How the results depend on the processing

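No paired analysis was possible because the mice were pooled into 1 library a genotype. The members' median log2 change ran from 0.02 to 0.04 and stayed above 0 under every alternative. Under those that kept these folds, 0 of the members that passed the filter in use were past 1.4 or 0.6. Of the members under 1 TPM, Plat was at 0.54 with a pseudocount of 0.1 TPM. On the authors' means, Plat was at 0.66 and F13a1 at 0.84. These values would be past 1.4 but rest on at most 18 estimated reads in a library. At folds of 1.2 and 1/1.2, 2 members were down, and of the other pathway genes 2 were up and 2 down; at folds of 2 and 0.5, 0 of the latter were up. Only F11 changed sign, on the authors' means (0.01) and after centering (0.01). With the median gene of the read values (-0.003) in place of 0, 13 members had an interval above it and 2 below. No such count was made over all genes. The intervals of F12 and F5 begin at 0.005 and 0.008, so a small shift of scale the other way would make them hold 0. Over all genes, 141 were up and 35 down; with 0.1 TPM 280 and 70, with the authors' means 296 and 80, at 10 TPM 62 and 17, at 100 TPM (chosen after seeing the data) 18 and 4, at folds of 2 and 0.5 45 and 13, at 1.2 and 1/1.2 627 and 640, and with a mirrored fall (0.714) 118 down. For Pgrmc1, the log2 change of -9.14 became -10.25 at a pseudocount of 0.1 TPM and -10.44 from the authors' means. The share up of all calls moved by over 10 percentage points only at folds of 1.2 and 1/1.2 and with the mirrored fall.

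Pooling limits the abundant members, whose counting intervals are narrow. Depth limits F13a1, Plat, Plaur, Procr, Plau and F3, which rest on at most 58 estimated reads in a library.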

Other observations

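Liver transcription factors known to drive clotting factor genes differed in both directions. Of 12, 7 were above 0, against 45.8% of all genes, with a median log2 change of 0.06. Stat3, which carries the IL-6 signal to the fibrinogen genes, was the highest at 0.21 (53.47 TPM in KO against 46.01 in WT, 95% interval of the ratio of means 0.16 to 0.30). Foxa2 was the lowest at -0.48 (14.70 and 20.96 TPM, -0.67 to -0.31). None was past a fold of 1.4 or 0.6, where 1.21% and 0.301% of all genes were.

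Markers of other cells that a liver sample can hold were mostly scarce. Over all genes, 45.8% were above 0 and 0.301% were past the fold of 0.6. Of 6 cholangiocyte markers, 4 reached 1 TPM and 1 was above 0, from -0.59 for Epcam to 0.01 for Krt19. Of 5 neutrophil markers in the table, 2 reached 1 TPM, S100a9 at 0.36 and S100a8 at 0.01. Of 5 red cell markers, 2 were above 0, from -0.89 for Hbb-bs, which was past 0.6, to 0.19 for Hba-a1; the globin genes have close copies between which reads can be split.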
